A study of Homo sapiens with 12 samples.

Results

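The imprinted genes described here are 10 genes of the SCC-15 expression table: H19, IGF2, CDKN1C, PEG10, SGCE, SNRPN, PLAGL1, MEG3, DLK1 and PEG3. They were chosen by name, after their levels in these libraries had been seen, and each matched 1 of the 61044 IDs in the table. Of the 10 members, 7 passed the filter on low counts and are among the 17532 genes tested. MEG3, DLK1 and PEG3 did not pass and are described by their counts.

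An imprinted gene is transcribed mainly or only from the chromosome copy inherited from the mother, or from the one inherited from the father. The choice is held by DNA methylation laid down in the egg or sperm at control regions, which often govern several neighbouring genes at once. Many imprinted genes act on growth before birth and are turned down in adult epithelium, and their silencing is often disturbed in tumours and in cultured tumour lines.

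SCC-15 is an established human line of oral squamous cell carcinoma. The study looked for genes that respond to loss of FMOD, which encodes the matrix proteoglycan fibromodulin, and by its title FMOD acts above EGFR signalling. There were 4 groups with 3 libraries each: cells with the negative control hairpin shRNA-NC (NC), and cells with 1 of 3 hairpins that target FMOD, named shRNA1, shRNA2 and shRNA3, all harvested after 48 hours in the same medium. The labels do not say whether libraries came from separate cultures, whether a line is 1 clone, or how the hairpins were delivered, so p-values measure only the spread between these libraries.

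Library totals lay between 17287017 and 19567289 estimated counts. FMOD was barely read, with 2 to 3 counts in each NC library and 0 in the 9 libraries with an FMOD hairpin, called knockdown libraries here. How far FMOD was lowered cannot be read from counts this low. Of 9 squamous markers, 9 were read above 3 counts in every group, and their summed level was 3980 to 4430 CPM (counts scaled to a common library total, with TMM correction for composition) in NC, 2610 to 3220 with shRNA1, 2750 to 2820 with shRNA2 and 2850 to 7360 with shRNA3. Single markers moved with the groups in both directions. The keratin gene KRT5 lay between 964 and 1050 CPM in NC and between 16.5 and 90.2 in the knockdown libraries, while KRT14 (6.51 to 9.58 against 24.2 to 230), KRT17 (280 to 345 against 539 to 865) and KRT6A (78.0 to 108 against 185 to 451) were higher in the knockdown libraries. TP63 was lower in the knockdown libraries (156 to 175 against 51.5 to 141). LAMB3 was at 1680 to 2050 CPM in NC, 596 to 1080 with shRNA1 and shRNA2, and 3180, 2990 and 971 with shRNA3. Libraries 1 and 2 of shRNA3 stood apart from library 3 (correlations of log2 CPM from 0.907 within that group, against at least 0.976 within the others). Calls of members between shRNA3 and another hairpin are therefore also given without them. So are the fold changes printed for shRNA3 that libraries 1 and 2 move by over 1.5 times. NC was far from the hairpin lines: 57.4% of all tested genes were called against NC with shRNA1, 53% with shRNA2 and 53.9% with shRNA3, and 166 tested genes had 0 counts in every NC library. The sources used here do not say whether NC and the hairpin lines come from 1 parental culture, so a difference between lines and an effect of the hairpins cannot be told apart. In bulk RNA, more cells of a type and more RNA per cell cannot be told apart.

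The 4 stretches below are 1 promoter window each of 4 members. RefSeq promoters (build GRCh38.p14, 250 bases before to 50 bases after a start) were found for 4 of the 10 members, H19, SNRPN, PLAGL1 and MEG3, with 13 windows in all; PEG10, SGCE, IGF2, PEG3, DLK1 and CDKN1C have none in the table used. The windows printed are H19 at chr11:2001217-2001516 (minus strand), SNRPN at chr15:24954737-24955036 (plus strand), where the annotation also starts SNURF, PLAGL1 at chr6:144008210-144008509 (minus strand), where it also starts the non-coding RNA HYMAI, and MEG3 at chr14:100825858-100826157 (plus strand). They are shown because H19 is the member with the most reads in the knockdown libraries, SNRPN has 0 counts in NC, PLAGL1 differs least from NC and MEG3 is hardly read. Capitals mark each CG, the dinucleotide that carries DNA methylation. The table counts reads per gene and does not say which start was used.
H19 promoter: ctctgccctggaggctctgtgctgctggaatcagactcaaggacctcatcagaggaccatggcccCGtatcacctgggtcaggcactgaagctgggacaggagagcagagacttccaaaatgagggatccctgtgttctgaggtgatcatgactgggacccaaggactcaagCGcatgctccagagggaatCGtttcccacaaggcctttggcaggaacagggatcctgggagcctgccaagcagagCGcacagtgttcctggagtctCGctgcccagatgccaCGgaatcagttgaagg
SNRPN promoter: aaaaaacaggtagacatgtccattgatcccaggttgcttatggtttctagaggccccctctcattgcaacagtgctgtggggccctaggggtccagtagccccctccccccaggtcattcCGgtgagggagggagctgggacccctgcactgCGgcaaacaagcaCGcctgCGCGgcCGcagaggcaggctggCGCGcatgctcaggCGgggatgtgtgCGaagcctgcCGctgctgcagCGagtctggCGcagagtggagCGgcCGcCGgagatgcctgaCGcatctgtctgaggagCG
PLAGL1 promoter: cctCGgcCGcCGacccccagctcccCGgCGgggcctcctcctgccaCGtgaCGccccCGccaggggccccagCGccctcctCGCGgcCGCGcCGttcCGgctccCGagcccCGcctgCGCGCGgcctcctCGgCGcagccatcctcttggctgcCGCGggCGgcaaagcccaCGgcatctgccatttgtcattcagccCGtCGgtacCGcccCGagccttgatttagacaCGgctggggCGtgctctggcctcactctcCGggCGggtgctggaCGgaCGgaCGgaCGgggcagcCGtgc
MEG3 promoter: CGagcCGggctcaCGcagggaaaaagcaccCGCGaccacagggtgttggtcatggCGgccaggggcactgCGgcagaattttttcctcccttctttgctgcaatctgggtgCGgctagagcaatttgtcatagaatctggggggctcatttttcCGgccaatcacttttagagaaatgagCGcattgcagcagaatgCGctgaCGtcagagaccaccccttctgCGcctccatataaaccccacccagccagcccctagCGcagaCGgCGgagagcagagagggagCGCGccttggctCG
The H19 window holds 6 CG, the SNRPN window 18, the PLAGL1 window 39 and the MEG3 window 19, against a median of 14 over 35116 promoter windows of the same length. The hexamer TGCCGC, which the imprint-keeping protein ZFP57 binds when methylated, was searched on both strands. It occurs 2 times in the SNRPN window, 2 times in the PLAGL1 window, 1 time in the MEG3 window and 0 times in the H19 window, and 16.7% of all promoters hold it. TATAAA, also searched on both strands, occurs 1 time in the MEG3 window and in 11.5% of all promoters. These are matches of letters, not measured sites, and no methylation was measured.

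H19 also carries the hairpin of miR-675 in its transcript. Its mature products, 5p at chr11:1996800-1996822 and 3p at chr11:1996768-1996787 (minus strand, RefSeq, GRCh38.p14), are shown with the seed (bases 2 to 8) in capitals, because they are the known small RNA products of the member with the most reads.
hsa-miR-675-3p: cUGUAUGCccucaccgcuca
hsa-miR-675-5p: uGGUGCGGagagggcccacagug
The 2 seeds differ. The row of the hairpin gene MIR675 is at 0 counts in all 12 libraries. MIR675 overlaps H19 by 73 bases on the same strand, and how reads were split between overlapping genes is not known. Its row therefore does not show whether miR-675 was made.

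H19 was almost unread in NC and among the most abundant RNAs in the knockdown libraries. H19, a long non-coding RNA made from the maternal copy and abundant in the embryo, lies on chromosome 11 at 1995176 to 2001470 (minus strand, GRCh38, GENCODE release 29). Its level was 3.33, 4.87 and 4.81 CPM in the NC libraries, 6170, 5410 and 4690 with shRNA1, 9680, 8850 and 9550 with shRNA2, and 14000, 13900 and 6560 with shRNA3. Every knockdown library lay above every NC library with no overlap, and library 3 of shRNA3 lay between the shRNA1 and shRNA2 libraries. In mean level this was 1250-fold, 2160-fold and 2650-fold of NC for shRNA1, shRNA2 and shRNA3 (log2 fold change 10.29, SE 0.41; 11.07, SE 0.42; 11.37, SE 0.42). H19 took 0.000365% to 0.000541% of all counts in NC and 0.483% to 1.11% in the knockdown libraries. By counts it ranked between 1 and 5 among all genes in the knockdown libraries and between 11891 and 12607 in NC. These contrasts with NC were in view when the members were chosen, so they are a description and no p-value is given. The log2 fold change of shRNA3 was 10.59 without its libraries 1 and 2.

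Levels with each hairpin had also been seen when the members were chosen. The p-values of members between hairpins are therefore not free of that choice and serve as a description. Between hairpins, H19 was lower with shRNA1 than with shRNA3 by -1.08 on the log2 scale (SE 0.28, adjusted p = 0.0166, edgeR quasi-likelihood test with Benjamini-Hochberg adjustment, lower in 3 of 3 libraries). Without libraries 1 and 2 of shRNA3 the difference was -0.29 and no longer called, and the call was also lost without shRNA1 library 2 (-1.08) or 3 (-0.98), or shRNA3 library 1 (-0.96) or 2 (-0.96). Between shRNA1 and shRNA2 it was -0.79 (SE 0.27, adjusted p = 0.0853), with no overlap of libraries, and between shRNA2 and shRNA3 -0.30 (SE 0.27, adjusted p = 0.449).

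IGF2, the fetal growth factor made from the paternal copy of the same domain (chromosome 11, 2129112 to 2149603, minus strand), was also higher in every knockdown library, at a far lower level. The NC libraries held 2, 0 and 6 counts (0.101, 0 and 0.304 CPM). The level was 5.42, 5.71 and 7.58 CPM with shRNA1, 8.66, 8.56 and 7.58 with shRNA2, and 19.3, 23.0 and 8.09 with shRNA3. No knockdown library overlapped NC, and within shRNA3 libraries 1 and 2 were again apart from library 3. From the 8 counts of NC, the ratio to NC was 46.5 for shRNA1 (exact 95% counting interval 23.4 to 109), 61.8 for shRNA2 (31.1 to 144) and 117 for shRNA3 (59.0 to 272), and library 3 of shRNA3 alone was 59.9-fold of NC. The difference between shRNA1 and shRNA3 was -1.43 on the log2 scale (SE 0.47, adjusted p = 0.0405, edgeR quasi-likelihood test), and it was -0.39 and not called without libraries 1 and 2 of shRNA3. That call was lost in 9 of the 12 fits that left out 1 library, with values from -1.58 to -1.17, and passed in the fits without NC library 2, NC library 3 or shRNA3 library 3. A second ID named IGF2, which overlaps the first, held at most 8 counts in any library, and the overlapping INS-IGF2 held 0.

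CDKN1C encodes p57, a cyclin-dependent kinase inhibitor made from the maternal copy in the neighbouring imprinted domain (chromosome 11, 2883213 to 2885773, minus strand). It was read in every library: 11.3, 9.25 and 10.1 CPM in NC, 64.5, 56.6 and 36.1 with shRNA1, 85.0, 85.8 and 84.8 with shRNA2, and 661, 761 and 75.1 with shRNA3. All knockdown libraries lay above NC, and the libraries of shRNA3 fell into 2 high values and 1 that lay between shRNA1 and shRNA2. The mean was 5.13-fold, 8.34-fold and 48.9-fold of NC (log2 fold change 2.36, SE 0.61; 3.06, SE 0.62; 5.61, SE 0.70). Without libraries 1 and 2 of shRNA3 the last value was 2.91, and library 3 alone was 7.36-fold of NC. Among hairpins, CDKN1C was lower with shRNA1 than with shRNA3 by -3.25 (SE 0.62, adjusted p = 0.00657, edgeR quasi-likelihood test, lower in 3 of 3 libraries), a value that was -0.54 and not called without libraries 1 and 2 of shRNA3. The difference between shRNA2 and shRNA3 was -2.55 (SE 0.60, adjusted p = 0.0366). It turned to 0.17 without libraries 1 and 2 of shRNA3, and its call was lost in 10 of the 12 fits that left out 1 library (-2.58 to -2.15), all but those without shRNA1 library 3 or shRNA3 library 3.

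PEG10 and SGCE form a head-to-head pair on chromosome 7 that shares 1 control region and is read from the paternal copy. PEG10 (94656325 to 94669695, plus strand) is a gene of retrotransposon origin needed for the placenta. It had 0 counts in all 3 NC libraries, 34.1, 38.4 and 43.9 CPM with shRNA1, 59.9, 67.0 and 64.9 with shRNA2, and 43.2, 40.7 and 50.4 with shRNA3. The knockdown libraries held 559 to 1190 counts each. Against a floor of 3 counts in each NC library (0.148 to 0.152 CPM), PEG10 was at least 258-fold higher with shRNA1, 425-fold with shRNA2 and 298-fold with shRNA3. Of the 17532 tested genes, 166 had 0 counts in every NC library, and 11 of these reached 10 CPM in each of the 9 knockdown libraries; PEG10 and SNRPN are among the 11. Unlike the genes on chromosome 11, PEG10 was close to level over the 3 libraries of shRNA3.

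Between hairpins PEG10 was lower with shRNA1 than with shRNA2 by -0.72 on the log2 scale (SE 0.15, adjusted p = 0.0185, edgeR quasi-likelihood test, lower in 3 of 3 libraries). The call was lost without shRNA1 library 1 (-0.63) or 2 (-0.72), without any of the shRNA2 libraries (-0.77, -0.69 and -0.72), and with library totals in place of TMM scaling (-0.67). The differences between shRNA1 and shRNA3 (-0.21, SE 0.15, adjusted p = 0.321) and between shRNA2 and shRNA3 (0.51, SE 0.15, adjusted p = 0.0647) were not called.

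SGCE encodes epsilon-sarcoglycan, a membrane protein of the dystrophin-linked complex (chromosome 7, 94524204 to 94656572, minus strand). The NC libraries held 0, 4 and 0 counts. The level was 6.51, 6.92 and 9.28 CPM with shRNA1, 9.94, 9.07 and 9.85 with shRNA2, and 14.5, 15.5 and 8.63 with shRNA3. Every knockdown library was above every NC library, and the ratio to NC was 113 for shRNA1 (exact 95% counting interval 43.8 to 416), 144 for shRNA2 (55.9 to 530) and 184 for shRNA3 (71.6 to 678). No pair of hairpins was called (adjusted p = 0.638, 0.179 and 0.490, edgeR quasi-likelihood test). The 2 genes overlap by 248 bases on opposite strands, and whether counting used strand is not given in the sources used here, so reads in that overlap could have been given to either. With both summed as 1 unit, the difference of PEG10 between shRNA1 and shRNA2 was -0.67 and not called.

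SNRPN encodes SmN, a protein of the spliceosome, at the paternally read Prader-Willi locus (chromosome 15, 24823637 to 24978723, plus strand). It too had 0 counts in all 3 NC libraries. Its level was 16.5, 15.8 and 18.2 CPM with shRNA1, 16.8, 15.4 and 16.5 with shRNA2, and 33.9, 34.4 and 16.5 with shRNA3. The shRNA1 libraries, the shRNA2 libraries and library 3 of shRNA3 lay close together, and libraries 1 and 2 of shRNA3 were higher. SNRPN was at least 112-fold higher than NC with shRNA1, 108-fold with shRNA2 and 188-fold with shRNA3 (floor of 3 counts in each NC library), or at least 110-fold in library 3 of shRNA3 alone. No pair of hairpins was called (adjusted p = 0.942, 0.0647 and 0.0877). SNURF, which shares the transcript, held 0 counts in NC and 0 to 17 in the knockdown libraries, and how reads were split between the 2 overlapping genes is not known.

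PLAGL1 (ZAC), a zinc-finger transcription factor read from the paternal copy on chromosome 6 (143940300 to 144064599, minus strand), did not share this pattern. Its level was 7.11, 7.77 and 7.86 CPM in NC, 7.21, 7.65 and 10.8 with shRNA1, 5.03, 7.49 and 7.08 with shRNA2, and 3.93, 3.49 and 6.00 with shRNA3. The shRNA1 and shRNA2 libraries overlapped NC, and the shRNA3 libraries lay below it. The log2 fold change against NC was 0.17 (SE 0.27), -0.21 (SE 0.27) and -0.75 (SE 0.27). PLAGL1 was higher with shRNA1 than with shRNA3 by 0.93 (SE 0.28, adjusted p = 0.0289, edgeR quasi-likelihood test, higher in 3 of 3 libraries), but the difference was 0.49 and not called without libraries 1 and 2 of shRNA3. That call was also lost without any single shRNA1 library (1.04, 1.0 and 0.73) and without shRNA3 library 1 (0.80) or 2 (0.74).

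The last 3 members were read too rarely to be tested. DLK1, a paternally read membrane protein of the Notch family (chromosome 14, 100725705 to 100738224), had 0, 0 and 0 counts in NC, 1, 1 and 0 with shRNA1, 6, 3 and 1 with shRNA2, and 7, 5 and 5 with shRNA3. Against the floor of 3 counts this was at least 1.28-fold higher for shRNA2 and at least 2.51-fold higher for shRNA3. MEG3, the maternally read non-coding RNA next to DLK1 (100779410 to 100861031), held 1 count in NC library 1, 1 and 2 counts in libraries 1 and 2 of shRNA3, and 0 in the other libraries. PEG3, a paternally read zinc-finger gene (chromosome 19, 56810077 to 56840728), held 1 count in 1 library of shRNA1 and 0 in the other 11. At this depth, 3 counts correspond to 0.145 to 0.222 CPM, and no difference of MEG3 or PEG3 was detectable.

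**Figure D1:**
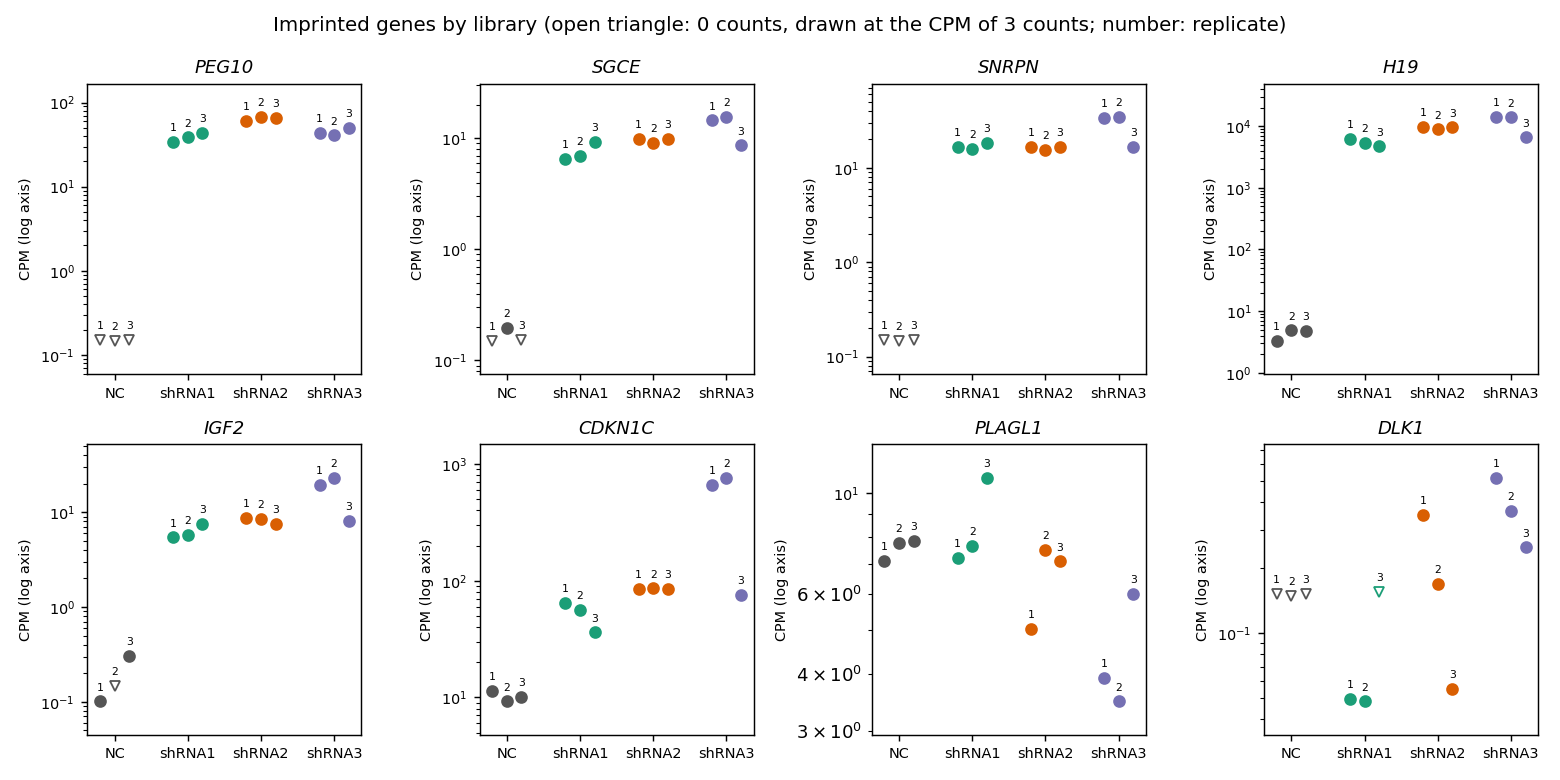
Level of 8 members in each of the 12 libraries, in TMM-scaled CPM on a log axis; each point is 1 library with its replicate number, and an open triangle is a library with 0 counts drawn at the CPM of 3 counts. PEG10 and SNRPN are at 0 in all NC libraries, H19 goes from under 5 CPM in NC to at least 4690, and CDKN1C is at 661 and 761 in libraries 1 and 2 of shRNA3 against 75.1 in library 3.

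Set against each other per kilobase of exon, the members changed order. In NC the highest was CDKN1C at 4.12 ± 0.416 CPM per kilobase (SD, n = 3), followed by H19 (1.50 ± 0.302) and PLAGL1 (0.868 ± 0.0467), each apart from the next in all libraries; IGF2 and SGCE came after and overlapped. With each hairpin H19 was first, at 1870 ± 255 with shRNA1, 3230 ± 155 with shRNA2 and 3970 ± 1480 with shRNA3, and CDKN1C was second at 21.1 ± 5.91, 34.4 ± 0.212 and 201 ± 150. PEG10 ranked 3 with shRNA1 (5.80 ± 0.733), where its libraries overlapped those of SNRPN (4.93 ± 0.359), and with shRNA2 (9.56 ± 0.547 against 4.76 ± 0.215), where they did not. With shRNA3, SNRPN (8.28 ± 2.98) and PEG10 (6.69 ± 0.750) ranked 3 and 4 and overlapped. IGF2, PLAGL1 and SGCE were under 4 CPM per kilobase in every knockdown library. The lengths are unions of annotated exons, which for SGCE and MEG3 are long, so their levels per kilobase are low by construction.

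Counted together, 6 of the 7 tested members were called higher than NC (adjusted p under 0.05) with each hairpin, and 1 was called lower, PLAGL1 with shRNA3. The background is wide: of all tested genes, 57.4% were called with shRNA1, 53% with shRNA2 and 53.9% with shRNA3. The choice of members used these contrasts, and the 3 comparisons share the NC libraries, so nothing is read from the counts. The median log2 fold change of the 7 tested members was 6.69, 7.03 and 7.45, beside -0.02, -0.05 and -0.03 over all tested genes. PEG10, SNRPN, SGCE and IGF2 held under 10 counts in every NC library, so they passed the filter only through the knockdown libraries. Their direction against NC followed from that, and nothing is read from the median either. Without libraries 1 and 2 of shRNA3, PLAGL1 was at -0.31 with shRNA3. Its call with shRNA3 was lost without any single NC library (-0.80, -0.74 and -0.73), shRNA1 library 2 (-0.74), or shRNA2 library 2 (-0.75) or 3 (-0.70). The call was also lost without shRNA3 library 1 (-0.61) or 2 (-0.55).

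Of the 21 tests of members between hairpins, 6 passed. Between shRNA1 and shRNA2, 1 of 7 tested members was called (PEG10, lower with shRNA1), where 12.3% of all tested genes were (5.78% higher, 6.53% lower). Between shRNA1 and shRNA3, 4 of 7 were called (H19, IGF2 and CDKN1C lower with shRNA1, PLAGL1 higher), where 30% of all genes were (11.9% higher, 18.1% lower). Between shRNA2 and shRNA3, 1 of 7 was called (CDKN1C, lower with shRNA2), where 8.34% of all genes were (1.91% higher, 6.43% lower). Without libraries 1 and 2 of shRNA3, the differences of the called members from shRNA3 were smaller, as given above. That of CDKN1C between shRNA2 and shRNA3 changed sign. The share of all tested genes called in that fit is not given, so no count is read from it. Over all libraries, the median difference of the 7 members was -0.41, -0.76 and -0.42 on the log2 scale, beside 0 over all genes in each pair.

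The genes around the members were then examined, since imprinted genes are controlled in domains. Of 62 tested genes within 500 kb of a member, 23 rose and 8 fell with shRNA1, 19 rose and 8 fell with shRNA2, and 30 rose and 6 fell with shRNA3. All tested genes gave 26.8% higher and 30.6% lower for shRNA1, 24.6% and 28.4% for shRNA2, and 26.4% and 27.6% for shRNA3. The median log2 fold change of these neighbours was 0.24, 0.29 and 0.58, beside -0.02, -0.05 and -0.03 over all genes. With library 3 as the sole shRNA3 library, the median of the neighbours with shRNA3 was 0.37. With all 3 hairpins, 16 rose and 3 fell, where 16% and 19.7% of all genes did.

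Of these 19 genes, 11 lie on chromosome 11. Around H19, IGF2 and CDKN1C, 28 neighbours were tested, of which 10 rose with all 3 hairpins (TNNT3, SYT8, TNNI2, TH, TSSC4, KCNQ1, SLC22A18AS, PHLDA2, NAP1L4 and OSBPL5) and 1 fell (IFITM10). TH, the gene of tyrosine hydroxylase, starts 22.3 kb from the start of IGF2. It had 0 counts in NC, 20.5, 22.5 and 28.6 CPM with shRNA1, 55.9, 47.3 and 47.5 with shRNA2, and 70.0, 69.9 and 34.5 with shRNA3. That is at least 159-fold, 334-fold and 387-fold higher than NC, and at least 230-fold in library 3 of shRNA3 alone. TNNT3, a skeletal muscle troponin gene 81.9 kb on the other side of H19, rose by 4.80, 6.16 and 6.33 on the log2 scale (adjusted p = 1.11e-05, 2.51e-06 and 2.32e-06, edgeR quasi-likelihood test), and by 5.06 with shRNA3 without its libraries 1 and 2. PHLDA2, a maternally read gene that limits placental growth, lies in the domain of CDKN1C and had 31.0, 31.4 and 26 CPM in NC, 225, 197 and 172 with shRNA1, 147, 130 and 136 with shRNA2, and 542, 579 and 103 with shRNA3. Its libraries of shRNA3 were split as those of CDKN1C were, and it rose by 2.75, 2.22 and 3.79 on the log2 scale (adjusted p = 0.000515, 0.00198 and 8.06e-05), the last of which was 1.83 without libraries 1 and 2 of shRNA3. KCNQ1OT1, the paternally read antisense RNA of that domain, was at -0.80 (SE 0.38, adjusted p = 0.0925), -1.21 (adjusted p = 0.0193) and -0.06 (adjusted p = 0.911), and its difference between shRNA2 and shRNA3 was not called (adjusted p = 0.0742). The value of KCNQ1OT1 with shRNA3 was -1.36 and called without its libraries 1 and 2 (adjusted p = 0.00117).

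**Figure D2:**
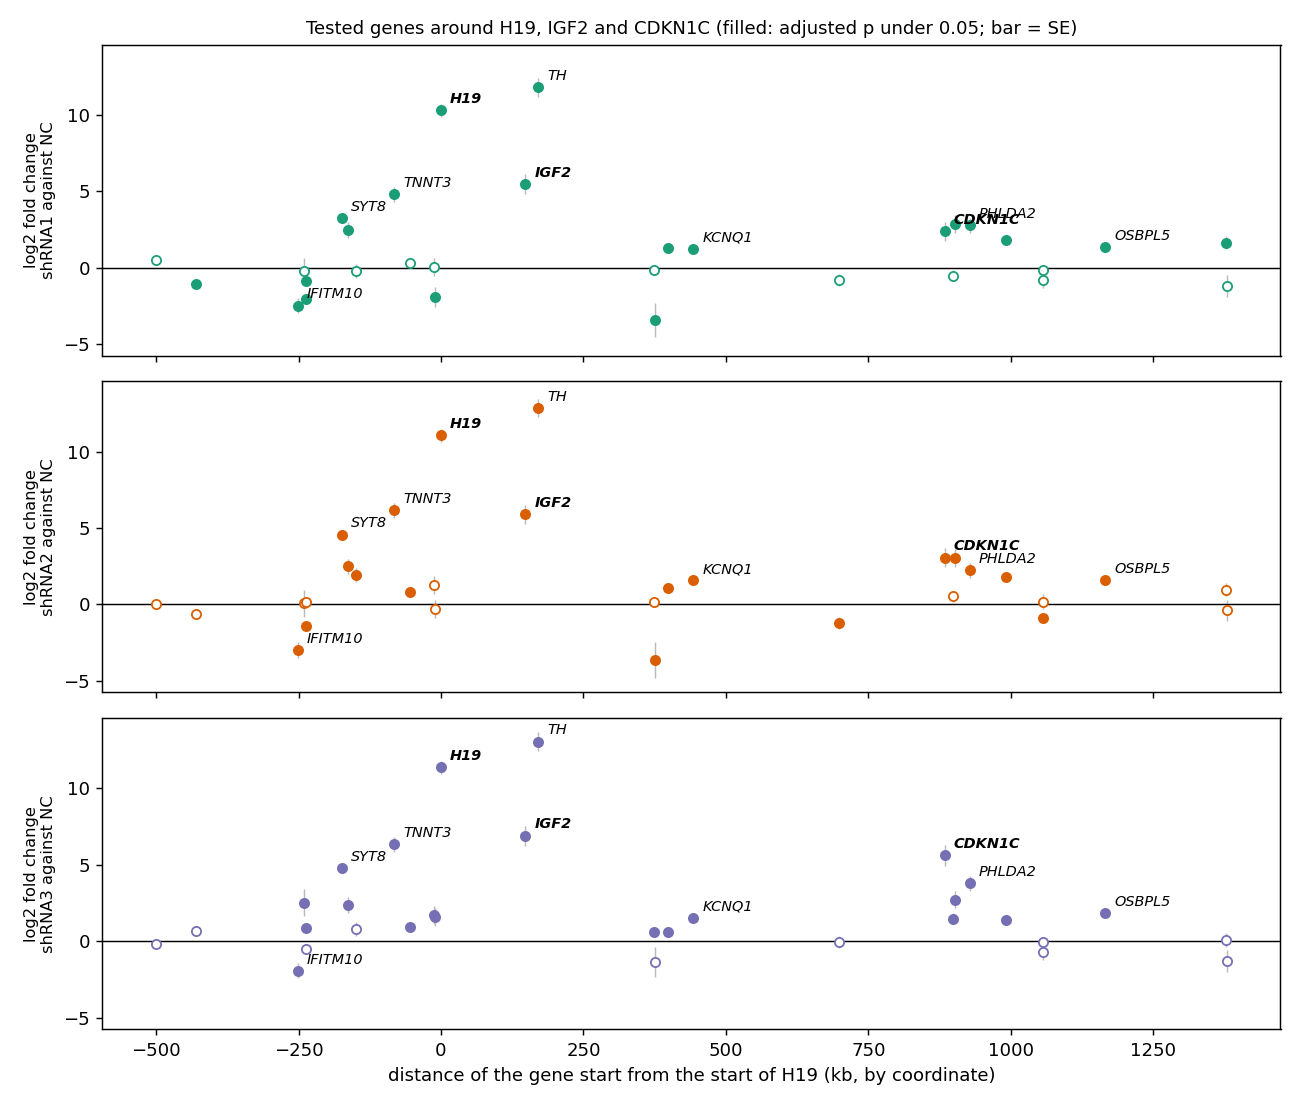
Log2 fold change against NC (vertical axis, bar = SE) of the tested genes around H19, IGF2 and CDKN1C, by the distance of their start from the start of H19 in kb, with 1 panel for each hairpin; filled points have an adjusted p under 0.05. H19, IGF2 and TH stand above 5 in each panel, TNNT3 at 4.80 to 6.33, and genes called lower lie among them, such as IFITM10.

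Elsewhere the picture differed by domain. Of the 4 tested neighbours of PEG10 and SGCE, COL1A2, a chain of type I collagen, and PPP1R9A, an imprinted gene of a protein phosphatase subunit, fell with all 3 hairpins, while PEG10 and SGCE were higher. COL1A2 had 4.59, 5.31 and 4.51 CPM in NC and at most 0.206 in a knockdown library (adjusted p = 0.000299, 0.000161 and 0.000267). Near SNRPN, SNHG14, the long RNA that continues downstream of SNRPN, rose from 0.706, 1.23 and 1.11 CPM in NC to 11.4, 13.0 and 24.2, to 15.1, 15.6 and 12.6, and to 8.45, 7.72 and 8.78. UBE3A, which that RNA runs against, was at 0.22, 0.00 and -0.19 on the log2 scale. Near DLK1 and MEG3, BEGAIN rose by 2.91, 3.59 and 3.95 (adjusted p = 7.39e-05, 1.87e-05 and 1.07e-05), and YY1, a zinc-finger factor, by 0.72, 0.78 and 0.55. RTL1, the retrotransposon-derived gene between them and DIO3, had 0 to 0.148 CPM in NC, 4.92, 4.11 and 0.361 with shRNA1, 0 to 0.166 with shRNA2 and 0 to 0.943 with shRNA3, and was called with shRNA1 (adjusted p = 0.00635) and between shRNA1 and shRNA2 (4.96, SE 1.33, adjusted p = 0.0341). PWAR5, downstream of SNRPN, had 0 counts in NC and 0 to 0.889 CPM in the knockdown libraries. Without libraries 1 and 2 of shRNA3, RTL1 was called with shRNA3 (3.43, adjusted p = 0.0497), and PWAR5, called with shRNA3 over all libraries, was not (adjusted p = 0.0648). Near PLAGL1, ADAT2, a subunit of a tRNA deaminase, rose by 0.77, 0.97 and 1.10, and FUCA2, a fucosidase, by 1.0, 1.43 and 1.40. Of the 10 tested neighbours of PEG3, 1 was called with shRNA2 and 3 with shRNA3.

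The members were next compared with the other imprinted genes of a general list. Of 61 found in the table, 39 were tested. They were called higher and lower in similar numbers: 10 and 11 with shRNA1, 8 and 10 with shRNA2, and 11 and 11 with shRNA3, beside the shares of all genes given above for each direction. Their median log2 fold change was 0, 0.16 and 0.05. Of the 39, 8 rose and 7 fell with all 3 hairpins. Without libraries 1 and 2 of shRNA3 the median log2 fold change with shRNA3 was 0.08.

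Some of these genes were at or near 0 in NC, and others were read in NC and at or near 0 in the knockdown libraries. ZNF331, a zinc-finger gene, had 0, 0 and 0.101 CPM in NC and 4.79 to 14.7 in the knockdown libraries, a ratio to NC of 280 for shRNA1 (exact 95% counting interval 77.0 to 2310), 195 for shRNA2 (53.5 to 1610) and 366 for shRNA3 (101 to 3030). GRB10, an adaptor that restrains insulin and IGF receptors, rose by 1.57, 1.24 and 1.71 on the log2 scale (adjusted p = 3.66e-06, 1.94e-05 and 2.32e-06). In the other direction, NLRP2, a maternal-effect gene of the NLR family, had 59.4, 63.9 and 56.5 CPM in NC, 0.0994, 0.0968 and 0 with shRNA1 and 0 in all libraries of shRNA2 and shRNA3. NAP1L5, a retrotransposed nucleosome-assembly gene, had 7.87, 7.28 and 8.62 CPM in NC and at most 0.148 elsewhere. DIRAS3, a small GTPase described as a growth suppressor, had 1.16, 1.62 and 1.27 CPM in NC and at most 0.0741 elsewhere. GNAS-AS1, the paternally read antisense RNA of GNAS, had 1.56, 1.23 and 1.52 CPM in NC and 0 in all 9 knockdown libraries (at least 9.61-fold, 8.45-fold and 7.32-fold lower). MKRN3, at the same chromosome 15 locus as SNRPN, fell by 2.54, 2.69 and 3.33 on the log2 scale, and by 2.71 with shRNA3 without its libraries 1 and 2.

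**Figure D3:**
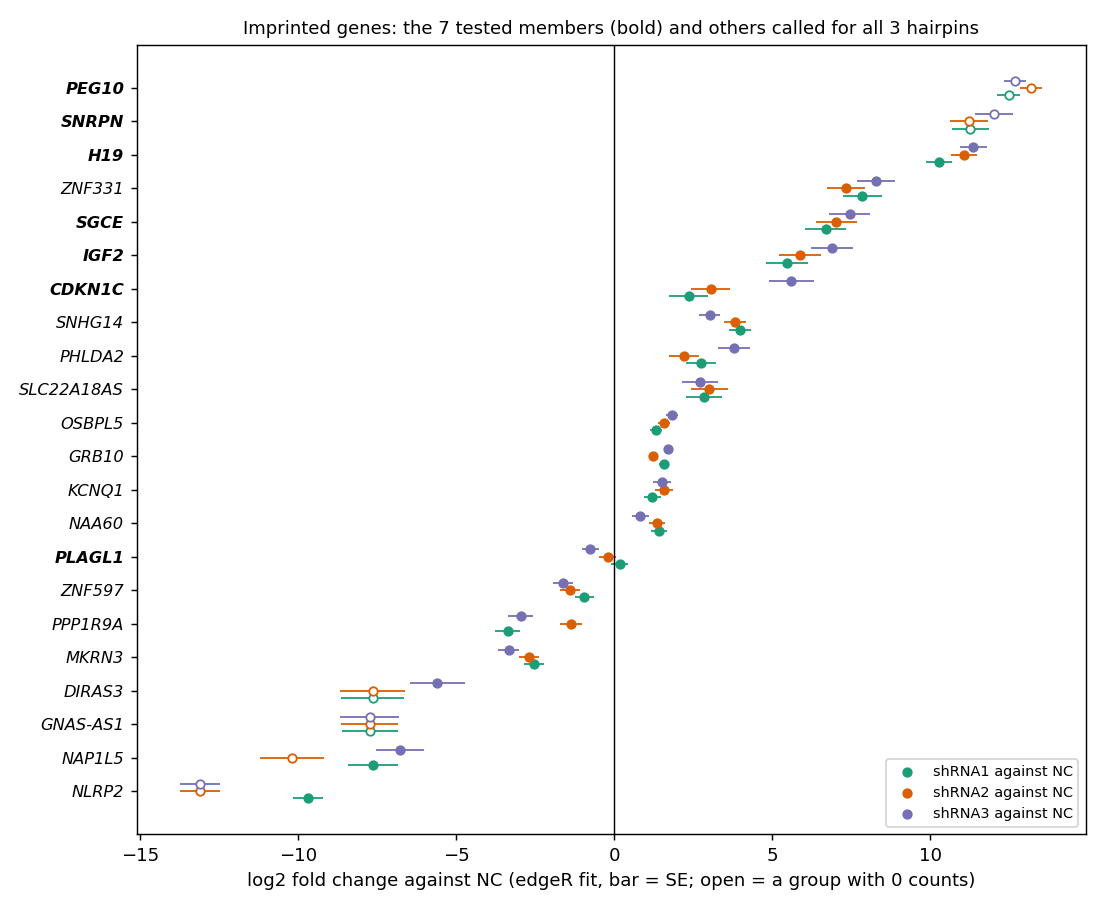
Log2 fold change against NC with SE for the 7 tested members (bold) and the other imprinted genes called in 1 direction with all 3 hairpins; open points are contrasts in which 1 group had 0 counts, where the fitted value is no bound. PEG10, SNRPN and H19 lie at the top, PLAGL1 lies near 0 and NLRP2, NAP1L5, GNAS-AS1 and DIRAS3 lie at the bottom.

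Genes that write, read or erase the marks at imprinted regions were followed next. Of 20 tested regulators, 13 rose and 3 fell with shRNA1, 11 rose and 3 fell with shRNA2, and 11 rose and 4 fell with shRNA3, with a median log2 fold change of 0.99, 0.80 and 0.61. The called share of the list was 80.0%, 70.0% and 75.0%, beside 57.4%, 53% and 53.9% of all tested genes, of which 26.8%, 24.6% and 26.4% were higher, and the median of all genes was -0.02, -0.05 and -0.03. With library 3 as the sole shRNA3 library, the median of the regulators with shRNA3 was 0.85. UHRF1, which brings the maintenance methyltransferase to replicated DNA, had 39.3, 54.1 and 42.8 CPM in NC, 209, 207 and 248 with shRNA1, 231, 218 and 231 with shRNA2, and 164, 148 and 274 with shRNA3 (log2 fold change 2.28, 2.32 and 2.11, adjusted p = 9.51e-06, 8.62e-06 and 1.75e-05, edgeR quasi-likelihood test). DNMT1, that methyltransferase, rose by 1.30, 1.67 and 1.35, and DNMT3B, which sets new methylation, by 1.76, 1.77 and 2.03. CTCF, which insulates IGF2 from its enhancers on the maternal copy, rose by 1.32, 1.40 and 1.20 (adjusted p = 2.81e-05, 1.87e-05 and 5.81e-05), and EHMT2, a histone H3 methyltransferase, by 1.76, 1.43 and 1.46. TET1, which oxidises methylcytosine, fell from 2.47, 1.72 and 2.89 CPM in NC to at most 0.664 in any knockdown library (adjusted p = 0.00246, 0.0115 and 0.00181). Its log2 fold change with shRNA3 was -4.19, and -3.5 without libraries 1 and 2. The other TET genes of the list did not follow it. TET3 was at 28.5 to 35.6 CPM in NC and 52.5 to 120 in the knockdown libraries. TET2 was at 5.9 to 7.97 CPM in NC, 11.8 to 19.7 with shRNA1 and shRNA2, and 4.22, 2.33 and 11.9 with shRNA3. DNMT3A, unlike DNMT3B, was at 12.8 to 17.5 CPM in NC and 7.45 to 13.3 in the knockdown libraries. NLRP7, a maternal-effect gene, fell from 1.56, 1.33 and 1.17 CPM to at most 0.145.

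**Figure D4:**
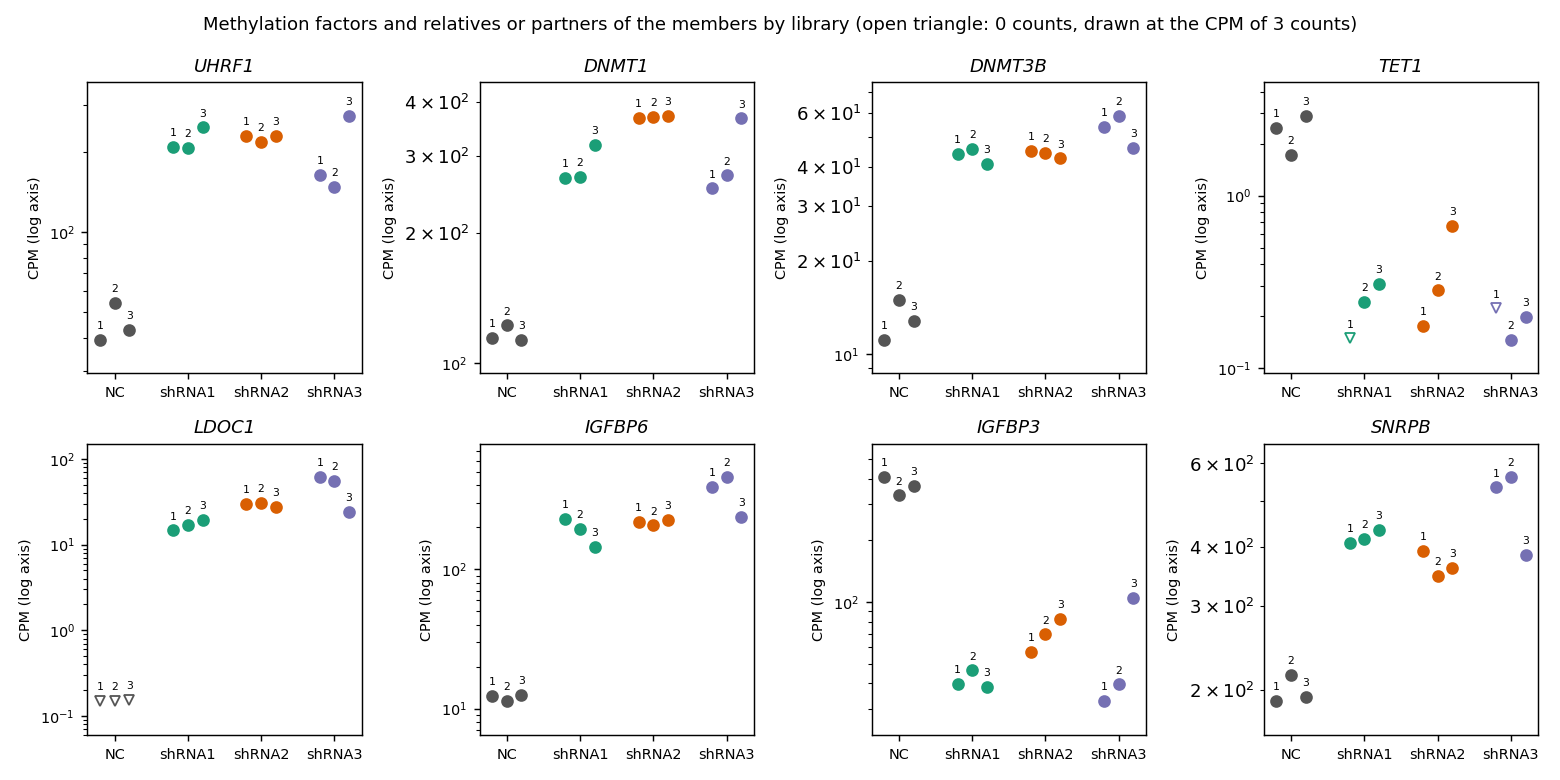
Level in each of the 12 libraries, in TMM-scaled CPM on a log axis, of 4 methylation factors (top) and 4 relatives or partners of the members (bottom); each point is 1 library with its replicate number, and an open triangle is a library with 0 counts drawn at the CPM of 3 counts. UHRF1, DNMT1, DNMT3B, IGFBP6 and SNRPB are higher in all knockdown libraries than in NC, TET1 and IGFBP3 are lower, and LDOC1 is at 0 in NC.

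The partners of IGF2 were then counted. Of 14 tested genes of the IGF axis, 3 rose and 9 fell with shRNA1, and 2 rose and 8 fell with each of shRNA2 and shRNA3, with a median log2 fold change of -0.78, -0.91 and -0.98, beside -0.02, -0.05 and -0.03 over all tested genes, of which 30.6%, 28.4% and 27.6% fell. Among the binding proteins that hold IGFs outside the cell, IGFBP3 fell from 407, 332 and 368 CPM in NC to 39.8, 46.3 and 38.3 with shRNA1, 56.8, 69.4 and 82.9 with shRNA2, and 32.7, 39.5 and 105 with shRNA3 (adjusted p = 3.88e-05, 0.000231 and 0.000131). Its log2 fold change with shRNA3 was -2.64, and -1.78 without libraries 1 and 2. IGFBP4 fell from 17.4, 14.9 and 12 CPM to at most 0.451, IGFBP5 from 1.97, 1.03 and 1.22 CPM to at most 0.199, and the protease gene PAPPA, whose product cuts IGFBP4, from 0.958, 0.886 and 0.659 CPM to at most 0.0484. IGFBP6, which binds IGF2 in preference to IGF1, rose from 12.4, 11.3 and 12.6 CPM to 228, 195 and 145, to 219, 206 and 227, and to 388, 456 and 238 (adjusted p = 4.96e-07, 3.67e-07 and 1.62e-07). Of the receptors, IGF1R rose with shRNA1 (0.76, adjusted p = 0.000406) and was at 0.25 and -0.06 with shRNA2 and shRNA3 (adjusted p = 0.117 and 0.702). IGF2R, which clears IGF2, was at -0.62, -0.42 and -0.94 (adjusted p = 0.00887, 0.0544 and 0.000765). Of the proteins that bind IGF2 mRNA, IGF2BP1 rose by 2.71, 2.09 and 1.67 (2.29 with shRNA3 without its libraries 1 and 2), and IGF2BP2 fell by 1.27, 1.23 and 1.18.

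Relatives and partners of the other members were mixed. Of 12 tested genes of the family of PEG10, 2 rose and 4 fell with shRNA1, 2 rose and 3 fell with shRNA2, and 2 rose and 2 fell with shRNA3, which is 50%, 41.7% and 33.3% called, under the 57.4%, 53% and 53.9% of all tested genes. LDOC1, a short relative on the X chromosome, had 0 counts in NC, 14.7, 17.2 and 19.3 CPM with shRNA1, 29.8, 30.6 and 27.9 with shRNA2, and 61.2, 55.8 and 24.0 with shRNA3 (at least 114-fold, 196-fold and 313-fold higher, and at least 159-fold in library 3 of shRNA3 alone), while RTL5 and RTL8B fell. Of 5 tested genes of the complex that holds SGCE, SSPN (sarcospan) fell from 5.09, 4.18 and 7.04 CPM to at most 0.338, and DAG1 (dystroglycan) rose by 0.73, 1.26 and 1.17 on the log2 scale. Of the 7 Sm core genes, whose ring SNRPN can join in place of SNRPB, 5, 5 and 6 rose, with a median log2 fold change of 1.07, 0.88 and 1.27, beside -0.02, -0.05 and -0.03 over all tested genes, of which 26.8%, 24.6% and 26.4% rose. SNRPB itself had 189, 215 and 193 CPM in NC, 408, 416 and 434 with shRNA1, 392, 348 and 361 with shRNA2, and 534, 561 and 385 with shRNA3 (adjusted p = 0.000121, 0.000496 and 3.27e-05). PLAG1, the growth-promoting relative of PLAGL1, fell by 1.30, 1.37 and 1.89. CDKN1A, the p21 gene and a relative of CDKN1C, was at 0.64 and 0.08 with shRNA1 and shRNA2 (adjusted p = 0.0845 and 0.835) and rose by 1.85 with shRNA3 (adjusted p = 0.000381). CDKN1B, the p27 gene, was at -0.07, 0.14 and 1.04 (adjusted p = 0.816, 0.610 and 0.00212). Without libraries 1 and 2 of shRNA3, CDKN1A was at 0.77 and CDKN1B at 0.36 with shRNA3, both still called (adjusted p = 0.000236 and 0.0433).

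Markers of other cell types were followed in the same libraries. Of 4 hepatic markers, ALB, AFP and TTR were at or under 3 counts in all 12 libraries, and the summed level of the list was 0 to 0.364 CPM. Of 5 trophoblast markers, CSH1 was at or under 3 counts in every library, and the summed level was 2.42 to 2.89 CPM in NC, 5.57 to 9.34 with shRNA1, 4.15 to 5.91 with shRNA2 and 7.59 to 10.9 with shRNA3. HLA-G carried most of the higher sums, at 0.64 to 1.22 CPM in NC and 3.27 to 8.37 in the knockdown libraries, while ERVW-1 (0.862 to 1.57 against 0.484 to 1.44) and PSG1 (0.353 to 0.811 against 0.218 to 1.6) overlapped. CGA had 0 counts in NC and with shRNA2, and was at 0.248 to 0.484 CPM with shRNA1 and 0.447 to 1.09 with shRNA3. The 7 fibroblast markers, with COL3A1 at or under 3 counts throughout, summed to 59.7 to 63.0 CPM in NC, 374 to 631 with shRNA1, 644 to 666 with shRNA2 and 511 to 898 with shRNA3. VIM made up most of that sum in the knockdown libraries, and COL1A1, at 40.3 to 43.0 CPM, in NC. VIM, the gene of vimentin, lay between 3.04 and 3.43 CPM in NC and between 355 and 817 in the knockdown libraries. PDGFRB (9.35 to 11.7 against 0.445 to 1.29), LUM (0.71 to 1.61 against at most 0.0563) and COL1A2 were lower in the knockdown libraries, so the fibroblast markers did not move together. The 4 general epithelial markers summed to 1890 to 2010 CPM in NC, 3330 to 4220 with shRNA1, 4150 to 4470 with shRNA2 and 3630 to 4870 with shRNA3. Among them CDH1, the gene of E-cadherin, lay between 310 and 335 CPM in NC and between 35.3 and 79.3 in the knockdown libraries, and KRT8 between 829 and 908 and between 2130 and 3000. The 3 endothelial markers summed to 17.6 to 23.1 CPM in NC and 3.88 to 13.2 in the knockdown libraries, with CDH5 lower (15.4 to 20.5 against 0.519 to 2.76) and PECAM1 higher (0.101 to 0.197 against 2.09 to 9.68). VWF was lower as well (1.52 to 2.47 against 0.0741 to 0.843). The 3 immune markers summed to 53.8 to 72.0 CPM in NC and 43.8 to 235 in the knockdown libraries, nearly all of it CD68, with PTPRC at most 0.436 and CD3E at most 0.197 in any library. The part of these differences in the levels of the members was not tested.

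Last, the tested genes whose pattern over the 12 libraries was most like that of a member were listed, by Pearson correlation of log2(CPM + 0.1); the NC libraries stand apart from the others in most genes, so the values are high throughout and serve as a description. For H19 they were BARX2 (0.9984), TH (0.9975), SCML2 (0.9970), TFF1 (0.9969) and VIM (0.9968). For PEG10 they were MAGEA1 (0.9992), RNF212 (0.9989), TWIST2 (0.9981), PTGES (0.9977) and MGST1 (0.9974). For SNRPN they were RGPD2 and KRT81 (0.9990 each), UTS2 (0.9983), GCHFR (0.9981) and an ID without a symbol. SGCE was most like B4GALNT4 (0.9966) and CDKN1C most like UQCRC1 (0.9960), LMNA (0.9939) and MXD1 (0.9938). PLAGL1 reached 0.9422, with MON2.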

How the data were processed

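RNA of 12 SCC-15 libraries was sequenced from NEBNext Ultra RNA libraries, 3 for each of NC, shRNA1, shRNA2 and shRNA3. The authors deposited 1 table of estimated (expected) counts per gene, of which 13.8% of values are not whole numbers. HISAT2, HTSeq 0.11.2 and GRCh38 are named, without role or order, per the submitters' processing notes. The authors' annotation, filters and strand setting are not given in the sources used here. Groups and replicate numbers came from the sample titles, which match the table's columns.

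The deposited estimated counts were rounded. Positions, overlaps and exon lengths come from GENCODE release 29 (GRCh38), matched on Ensembl ID, which holds 95.7% of the IDs. Symbols are current gene symbols, with the GENCODE release 29 symbol where no current one matched. PEG3-AS1 was not matched. Counts were scaled by TMM and filtered with filterByExpr (minimum count 10, minimum total 15), which left 17532 genes. All 12 libraries entered 1 edgeR quasi-likelihood model of the 4 groups (R 4.3.3, edgeR 4.0.16, 8 residual degrees of freedom), tested two-sided with Benjamini-Hochberg adjustment over all tested genes and a threshold of 0.05. A script was tested on simulated data first. CPM values are TMM-scaled. A group with 0 counts was set to 3 counts per library, and a fold change from it is a lower bound. Ratios from few counts have exact 95% intervals. Such intervals and floors hold counting error alone, because without molecular identifiers 2 reads may stem from 1 molecule.

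The members and all gene lists were chosen with earlier results of these data known. Named were all 10 members, in each list up to 6 genes called with all 3 hairpins in 1 direction, by their smallest change, tested neighbours within 500 kb called with all 3, and 5 genes most like each member with at least 1 CPM. The genes KRT5, KRT14, KRT17, KRT6A, KRT8, VIM, COL1A1, PDGFRB, LUM, HLA-G, ERVW-1, PSG1, CDH1, CDH5, PECAM1, CD68, PTPRC, CD3E, GRB10, MKRN3, PHLDA2, KCNQ1OT1, UBE3A, RTL1, CTCF, IGF1R, IGF2R, IGF2BP2, CDKN1A and CDKN1B were named for their role or as the markers that carried a sum after their values were seen. TP63, LAMB3, VWF, CGA, TET2, TET3 and DNMT3A were named as further genes of their lists, also after their values were seen. Alternatives were DESeq2 size factors, library totals, no filter, the Wald test of DESeq2 1.42.0, fits of only the groups compared, a replicate block, each library left out, libraries 1 and 2 of shRNA3 left out, a threshold of 0.01, and PEG10 and SGCE summed. The genes most like IGF2 and 1 marker list are not reported here. No replicate pair agreed within sampling noise.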

Additional observations from a re-analysis of the deposited data

How the results depend on the processing

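Of 2586 values of single named genes under the alternatives, 2495 kept their side of the threshold, 70 lost a call and 20 gained one. The remaining 1 changed sign from a called value (CDKN1C between shRNA2 and shRNA3, 0.17 without libraries 1 and 2 of shRNA3). Values that changed sign without a call in either fit are counted among the 2495. The 6 or 7 members called against NC stayed at 6 to 7 for each hairpin under the alternatives run. Members called between shRNA1 and shRNA2 (1) became 2 with the DESeq2 Wald test and 3 with only the groups compared. They became 0 at a threshold of 0.01, and 0 to 3 without single libraries. Between shRNA1 and shRNA3 (4) they became 0 with only the groups compared, 1 at 0.01, and 1 to 6 without single libraries. Between shRNA2 and shRNA3 (1) they became 0 with library totals, without the filter, with only the groups compared and at 0.01. They became 4 with the DESeq2 Wald test, and 0 to 6 without single libraries. The share of all tested genes called under each alternative is not given. These counts therefore do not separate a change in the members from a change in calls over all genes. Other imprinted genes higher became 16 with only the groups compared for shRNA1 and 16 for shRNA2, 19 and 15 without libraries 1 and 2 of shRNA3, and 10 to 19 and 8 to 14 without single libraries; those lower with shRNA3 ranged from 8 to 19 without single libraries. Neighbours called with shRNA3 became 23 with only the groups compared. The cause of these changes was not tested.

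Same-numbered libraries did not deviate together (mean correlation -0.00412 over 18 pairs), so the numbers were not taken to pair them. With the replicate block 0 members were called between shRNA2 and shRNA3, and IGF2 between shRNA1 and shRNA3 (-1.41) and CDKN1C between shRNA2 and shRNA3 (-2.29) were not called. With library totals the median of all tested genes shifted to -0.101, -0.183 and -0.347 against NC on the log2 scale. Where shRNA3 has 1 library left, it is assumed to vary like the other groups. With few counts, DLK1, MEG3 and PEG3 are limited by depth.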
